A study of Oryza sativa with 15 samples.

Results

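The rice loci LOC_Os12g32080, LOC_Os12g32150 and LOC_Os12g32180, which lie close together on chromosome 12, were read mostly from the allele inherited from the father in hybrid endosperm. Their maternal reads were under 10% in 3 of the 4 crosses and between 20.5 and 33.5% in the cross YW. LOC_Os12g32180 is annotated in the deposited tables as a putative cornichon protein, and the other 2 loci as expressed proteins with no further description. They are 3 of 13828 loci that appear in at least 1 of the allele tables, and they were named together with the measured loci around them because they were chosen by their low maternal read counts in these same tables. Their maternal shares, the calls made from them and the differences between crosses are therefore a description, and no p-value is given for these 3 loci.

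The series measured RNA of endosperm collected 5 days after fertilization from reciprocal hybrids of japonica and indica rice, so that each allele was followed through the mother and through the father. LR had a Liuqianxin (japonica) mother and a Rongfeng (indica) father, and RL had a Rongfeng mother and a Liuqianxin father. YW had a Yu6 (japonica) mother and a Wufeng (indica) father, and WY had a Wufeng mother and a Yu6 father. In all 4 crosses the mother was an A line, which carries male-sterile cytoplasm and was emasculated as well. The father was a B line, the fertile maintainer of such a line. The A line that gave the cytoplasm thus also changed between the reciprocal crosses of a set. LR and RL had 3 libraries each and YW and WY 2 each, every library being a pool of 20 to 30 endosperms taken up with a pipette to keep out maternal tissue. The other 5 of the 15 libraries are inbred controls (Liuqianxin A by B and Rongfeng A by B), for which the tables have no columns. The tables give 1 maternal and 1 paternal read count per cross, with replicates already pooled, so every error below is a counting error (Wilson 95% interval or SE of the log2 odds) and no spread between replicates can be given.

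Imprinted genes are genes whose 2 parental alleles are expressed unequally according to the parent they came from. In flowering plants they are found mainly in the endosperm, the nutritive tissue of the seed, and at paternally expressed genes the maternal copies are commonly the silenced ones. In this tissue 2 maternal genomes meet 1 paternal genome, and a locus read evenly from every copy therefore has a maternal share of 66.7%. Cornichon proteins are small membrane proteins that, in yeast and animals, load transmembrane cargo proteins into COPII vesicles leaving the endoplasmic reticulum.

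The tables hold 62102 SNPs for LR and RL and 59107 SNPs for YW and WY, and the reads summed over them came to between 29149713 in YW and 34433249 in RL. Of the loci, 10867 had enough reads to be tested in LR and RL, 11443 in YW and WY, and 9753 in both sets. YW stood apart from the other crosses: the median maternal share of its tested loci was 75.1%, against 67.1% in LR, 63.8% in RL and 62.9% in WY. Of the endosperm markers listed (Wx, RISBZ1, RPBF, NF-YB1 and OsFIE1), 5 of 5 had reads in the LR and RL table, with 1195 to 195182 reads in LR and 193 to 486719 in RL. In YW and WY 4 of 5 were listed, all but Wx, with 1232 to 44669 reads in YW and 546 to 107258 in WY. None of the markers of maternal seed tissue (OsMADS29 and OsMADS13, 0 of 2) or embryo (OSH1, 0 of 1) is listed in either table. The tables list only SNPs between the parents, none with under 11 reads in a cross, so this gives no level for those tissues, and the part of maternal tissue in the maternal reads of YW was not tested.

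The 3 loci spanned 72.7 kb, from position 19354247 to 19426994 of chromosome 12 in LR and RL; no genome build is named in the labels or tables. LOC_Os12g32080 had 20 SNPs in LR and RL and 11 in YW and WY, all within positions 19354224 to 19354864. LOC_Os12g32150 followed 37.1 kb further on, with 12 and 11 SNPs between 19391938 and 19392620. Both are numbered along their transcripts against the direction of the chromosome, and their SNPs lie in 1 uninterrupted segment each. LOC_Os12g32180 was read at 4 SNPs, the same 4 in both sets, between 19424989 and 19426994. Its transcript runs along the chromosome and its SNPs fall in 3 segments, separated by 880 and 729 bases that are not part of the transcript numbering. The 4 measured substitutions of the cornichon locus, written with the base listed as reference, the chromosome position and the alternative base, were A19424989G, C19425118T, T19426064C and A19426994G.

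LOC_Os12g32080 had 6 maternal and 931 paternal reads in LR, a maternal share of 0.640% (95% interval 0.294 to 1.39%). In RL it had 62 maternal and 657 paternal reads, a share of 8.62% (6.78 to 10.9%). YW gave 164 maternal and 514 paternal reads and a share of 24.2% (21.1 to 27.6%), and WY gave 46 maternal and 447 paternal reads and a share of 9.33% (7.07 to 12.2%). The share was thus lowest in LR and highest in YW, the intervals of both lay apart from those of the other crosses, and those of RL and WY overlapped.

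LOC_Os12g32150, the most deeply read of the 3, had 13 maternal and 2953 paternal reads in LR, a maternal share of 0.438% (0.256 to 0.748%). RL had 151 maternal and 3750 paternal reads, a share of 3.87% (3.31 to 4.52%). YW had 624 maternal and 2421 paternal reads, a share of 20.5% (19.1 to 22.0%), and WY had 137 maternal and 2614 paternal reads, a share of 4.98% (4.23 to 5.86%). The order of the crosses was the same as at LOC_Os12g32080, again with overlapping intervals in RL and WY.

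LOC_Os12g32180, the cornichon locus, had 4 maternal and 228 paternal reads in LR, a maternal share of 1.72% (0.672 to 4.35%). RL had 1 maternal and 350 paternal reads, a share of 0.285% (0.0503 to 1.60%). YW had 68 maternal and 135 paternal reads, a share of 33.5% (27.4 to 40.2%). WY had 0 maternal and 318 paternal reads, which allows a share of up to 0.943%. Maternal reads of the cornichon locus were thus nearly confined to YW, and the other 3 crosses had 5 maternal reads between them.

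**Figure D1:**
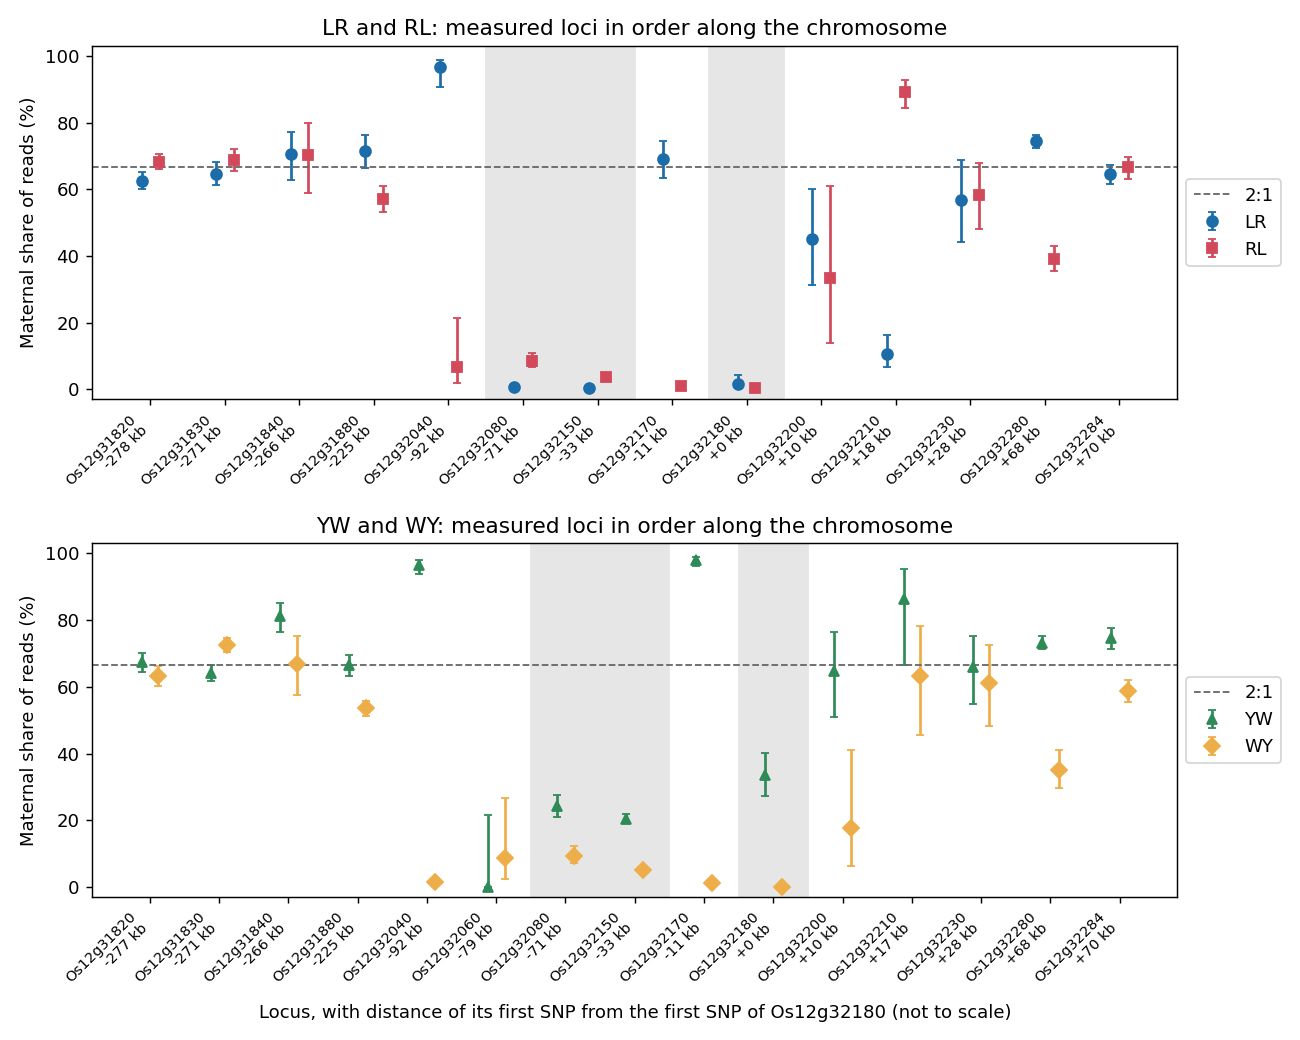
Maternal share of reads in percent at each measured locus of the region, in chromosome order, for LR and RL (upper panel) and YW and WY (lower panel), with bars for the Wilson 95% interval of the pooled counts, grey bands on LOC_Os12g32080, LOC_Os12g32150 and LOC_Os12g32180, and a dashed line at the 2:1 share of 66.7%. In the grey bands all points lie at or below 33.5%, LOC_Os12g32170 between them switches between 98.0% in YW and 1.19% in WY, and most outer loci lie around 66.7% or swing between the crosses of a set, apart from the thinly read LOC_Os12g32060 and LOC_Os12g32200.

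A parent call required an adjusted p under 0.05 with both crosses of a set on the same side of 2:1 (exact two-sided binomial test, the larger p of the set, Benjamini-Hochberg over all tested loci). A strong call also required a 5-fold departure in both crosses, which for a paternal call is a maternal share of at most 28.6%. All 3 loci, chosen by these counts, met the criteria of a strong paternal call in LR and RL, where strong paternal calls made up 1.63% of tested loci and paternal calls of any size 6.87%. In YW and WY LOC_Os12g32080 and LOC_Os12g32150 met those of a strong paternal call, against a background of 0.612%, and LOC_Os12g32180 those of a paternal call, against 3.73%. The outcome was fixed by the choice of the loci, and nothing is read from it. At the limit of 28.6%, LOC_Os12g32080 lay just inside with 24.2% in YW and LOC_Os12g32180 just outside with 33.5% in YW. Departures from 2:1 (log2, after adding 0.5 to both counts) were -8.16 in LR and -4.40 in RL, and -2.65 in YW and -4.27 in WY for LOC_Os12g32080. For LOC_Os12g32150 they were -8.77 in LR and -5.63 in RL, and -2.96 in YW and -5.25 in WY. For LOC_Os12g32180 they were -6.67 in LR and -8.87 in RL, and -1.98 in YW and -10.3 in WY, the last resting on 0 maternal reads and so on the 0.5 that was added.

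**Figure D2:**
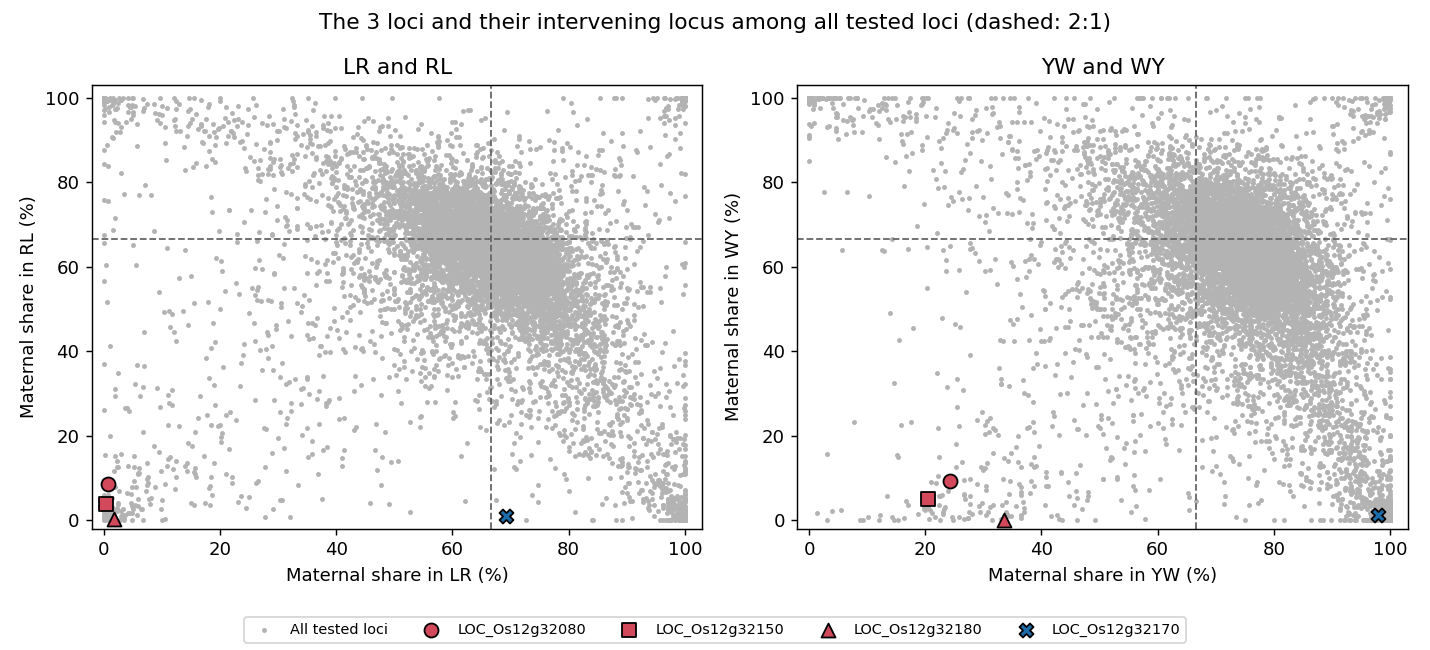
Maternal share in LR against RL (left) and in YW against WY (right), in percent, for every tested locus (grey), the 3 loci (red) and LOC_Os12g32170 (blue cross), with dashed lines at 66.7%. The 3 loci sit in the lower left corner in LR and RL, and are displaced to between 20.5% and 33.5% along the YW axis, while LOC_Os12g32170 sits at the lower edge far from them.

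The 3 loci were chosen by the counts at these SNPs, so the values of single SNPs describe the loci and lend the sums no support. Every SNP had a maternal share below 66.7% in every cross. At LOC_Os12g32080 no maternal read was seen at 16 of 20 SNPs in LR, and the highest SNP there reached 3.45%. In RL its SNPs ranged from 0 to 17.8%, in YW from 12.2 to 36.3% and in WY from 4.12 to 19.2%. At LOC_Os12g32150 LR ranged from 0 to 2.11%, RL from 0 to 14.0%, YW from 11.7 to 25% and WY from 0 to 29.1%. SNPs that lie within a read of each other share reads, so they are not independent counts, and the intervals above can be too narrow.

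The 4 SNPs of the cornichon locus can be followed one by one. At A19424989G the counts of maternal and paternal reads were 0 and 51 in LR, 1 and 107 in RL, 24 and 29 in YW, and 0 and 101 in WY. At C19425118T they were 1 and 60 in LR, 0 and 73 in RL, 18 and 32 in YW, and 0 and 85 in WY. At T19426064C they were 3 and 67 in LR, 0 and 91 in RL, 12 and 40 in YW, and 0 and 75 in WY. The maternal reads of YW were thus spread over separate segments of the transcript, and were not a feature of 1 SNP. At the last SNP, A19426994G, the counts were 0 and 50 in LR, 0 and 79 in RL, 14 and 34 in YW, and 0 and 57 in WY. The YW share ran between 23.1 and 45.3% over the 4 SNPs, with overlapping intervals at the extremes (13.7 to 36.1% and 32.7 to 58.5%).

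At LOC_Os12g32150 the maternal reads of RL and WY were concentrated at a pair of neighbouring SNPs. T19392454C had 82 maternal and 505 paternal reads in RL (14.0%) and 92 and 224 in WY (29.1%). G19392459A, 5 bases away, had 6 maternal and 555 paternal reads in RL and 1 and 313 in WY. T19392353G had 24 maternal and 287 paternal reads in RL (7.72%) and 27 and 224 in WY (10.8%). T19392454C and T19392353G together held 70.2% of the locus's maternal reads in RL and 86.9% of those in WY, but 0% in LR and 17.0% in YW. Without them, a choice made after the counts were seen, the maternal share was 0.552% in LR and 1.5% in RL, and 21.5% in YW and 0.824% in WY. The YW share thus hardly moved, whereas most maternal reads of the crosses with an indica mother went with these 2 positions.

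At LOC_Os12g32080 the maternal share was higher at the 2 SNPs within the first 100 bases of the transcript model than beyond them in RL (16.8 and 7.19%), YW (32.5 and 21.6%) and WY (18.2 and 6.79%). In LR it was 0 of 111 reads at those 2 SNPs (upper bound 3.35%) and 0.726% beyond them. The limit of 100 bases was chosen after the values were seen. With a limit of 400 bases the shares before and beyond it were 10.8 and 6.63% in RL and 30.0 and 13.9% in YW. They were 14.5 and 5.13% in WY and 0.562 and 0.744% in LR. In YW the SNPs at bases 116 to 157 gave 26.1 to 30.3%, so its higher share did not end at base 100. At 100 bases the intervals did not overlap in RL (10.9 to 25% and 5.40 to 9.51%). Those of WY lay apart too (12.1 to 26.4% and 4.67 to 9.76%), and those of YW nearly met (25.7 to 40.1% and 18.3 to 25.4%). The first 2 SNPs, at bases 36 and 52, can share reads, so these intervals can be too narrow and decide nothing.

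**Figure D3:**
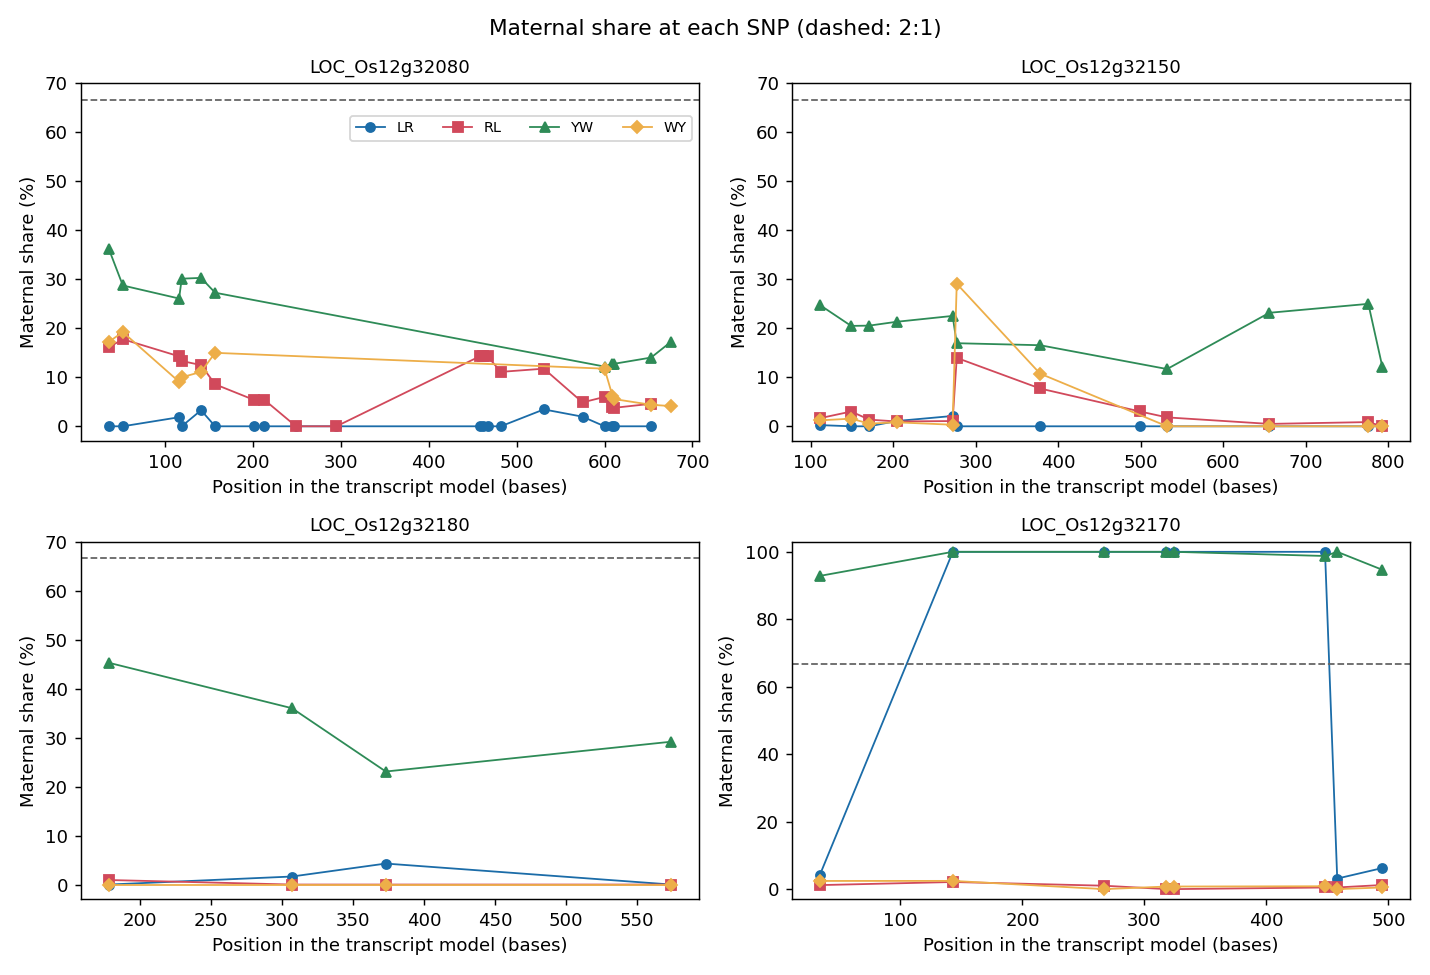
Maternal share in percent at each SNP against its position in the transcript model in bases, for LR, RL, YW and WY, at the 3 loci (axis to 70%) and at LOC_Os12g32170 (axis to 100%), with a dashed line at 66.7%. YW runs above the other crosses at nearly all SNPs of the 3 loci, LOC_Os12g32150 has a peak of 29.1% in WY at T19392454C, and LOC_Os12g32170 shows SNPs at 100% beside SNPs near 5% in LR.

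The block was interrupted by LOC_Os12g32170, an expressed protein that lies 21.6 kb beyond LOC_Os12g32150 and 10.3 kb before LOC_Os12g32180. It was followed at 8 SNPs, with 189 maternal and 84 paternal reads in LR (69.2%), 19 and 1985 in RL (0.948%), 529 and 11 in YW (98.0%) and 16 and 1328 in WY (1.19%). Most of its reads therefore carried the japonica allele whichever parent gave it. It had a japonica call in YW and WY (adjusted p = 3.51e-75 in the exact binomial test, 32.4% of tested loci) and no call in LR and RL (adjusted p = 0.598). The SNP with the most reads over LR and RL, T19414594G, alone gave a japonica call there (adjusted p = 1.13e-06, exact binomial test). It had 39 maternal and 0 paternal reads in LR and 7 and 325 in RL. A19414703C, of similar depth, had 1 and 23 in LR and 4 and 332 in RL, below 2:1 in both. The call from a single SNP thus depends on which SNP is taken. Its LR share differed from the RL share (log2 odds 7.84 ± 0.38, adjusted p = 1.35e-182, Fisher's exact test). The 69.2% in LR was not a mixture at each SNP. In LR 5 SNPs had 185 maternal and 0 paternal reads, and the other 3 SNPs had 4 maternal and 84 paternal reads (4.55%). The switches between these runs took place over 10 bases and over 109 bases. In the other crosses both groups of SNPs gave like shares, with 1.02% for the 3 SNPs and 0.902% for the 5 in RL, 95.7 and 99.7% in YW, and 1.33 and 1.05% in WY. SNPs both under 10% and over 90% at 1 locus, limits chosen after LOC_Os12g32170 was seen, occurred in LR at 85 of 8835 loci with several SNPs of at least 20 reads (0.962%). They occurred at 0 of the 3 loci of the block, which were chosen by low maternal counts, so nothing is read from that count.

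Beyond the block no tested neighbour had a parent call, a count set beside the shares over all tested loci below. On the left, LOC_Os12g32040, annotated as a ZmEBE-1 protein after a maize gene of the embryo sac and endosperm, lay 20.7 kb from LOC_Os12g32080. Its maternal share was 96.7% in LR and 6.67% in RL, and 96.7% in YW and 1.54% in WY, a japonica call in LR and RL (exact binomial test, adjusted p = 5.05e-11, 20.2% of tested loci) and in YW and WY (adjusted p = 4.43e-37). Like LOC_Os12g32170 it was thus read from the japonica allele in both directions of the cross. LOC_Os12g32060, which lies between it and the block and appears only in the YW and WY table, had 0 maternal and 14 paternal reads in YW, which allows at most 21.4%, and 2 and 21 in WY. It had too few reads for the test, and received a paternal call when the minimum of reads was dropped. The 4 loci further left had no call against 2:1 in either set: LOC_Os12g31820 (phosphoserine phosphatase, an enzyme of serine synthesis), LOC_Os12g31830 (nitrilase), LOC_Os12g31840 (the C2H2 zinc finger protein ZOS12-05) and LOC_Os12g31880 (a translation initiation factor). Their maternal shares were between 62.6 and 71.6% in LR, 57.2 and 70.4% in RL, 64.1 and 81.1% in YW, and 53.6 and 72.5% in WY. At LOC_Os12g31880 the sum averages unlike SNPs, which were thinly read (11 to 19 reads each in LR). Its SNPs ranged from 30.8 to 100% in LR and from 23.1 to 76.7% in RL. In YW they ranged from 36.4 to 100% and in WY from 29.2 to 72.3%.

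On the right, LOC_Os12g32200, 8.07 kb beyond the cornichon locus, had 19 maternal and 23 paternal reads in LR, 4 and 8 in RL, 33 and 18 in YW, and 3 and 14 in WY, too few for the test. LOC_Os12g32210, annotated as autophagy-related 10, had a maternal share of 10.5% in LR and 89.3% in RL, an indica call (exact binomial test, adjusted p = 3.96e-13, 11.1% of tested loci), the opposite strain from LOC_Os12g32040 and LOC_Os12g32170. Its 3 SNPs in LR gave 77.8, 1.56 and 1.43%, so 1 of them went against the others, and in YW and WY it was read at a different SNP, with 86.4 and 63.3% and no call. LOC_Os12g32230, annotated as molybdenum cofactor biosynthesis protein 1, had no call, with 56.9% in LR and 58.2% in RL, and 65.8% in YW and 61.0% in WY. LOC_Os12g32280, which holds a SWIB/MDM2 domain, had a japonica call in both sets (74.4% in LR and 39.2% in RL, and 73.3% in YW and 35.1% in WY). That call was lost in LR and RL with the most deeply read SNP alone (adjusted p = 0.0530, exact binomial test) and in YW and WY with the null at the median ratio of each cross (adjusted p = 0.178). LOC_Os12g32284, a glycine-rich protein, had no call in LR and RL (64.5 and 66.6%) and a japonica call in YW and WY (74.6 and 58.7%). Outside the block, 0 of 9 tested loci in LR and RL and 0 of 9 in YW and WY had a paternal or a maternal call, beside 6.87 and 3.73% paternal calls and 2.03 and 5.99% maternal calls over all tested loci. With 9 loci a count of 0 is near those shares, so no edge of the block is read from it. In a fit of the 4 crosses together with edgeR's quasi-likelihood test (Benjamini-Hochberg adjustment over 9753 loci), which averages the crosses, LOC_Os12g32170 (log2 departure -2.75, adjusted p = 3.58e-21), LOC_Os12g32040 (-1.29, adjusted p = 0.0161) and LOC_Os12g32280 (-0.63, adjusted p = 0.0484) passed as paternal, although each was above 2:1 in LR and YW.

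The size of the maternal remainder differed between the reciprocal crosses, in opposite directions in LR and RL and in YW and WY for LOC_Os12g32080 and LOC_Os12g32150. LR had the lower maternal share against RL at LOC_Os12g32080 (log2 odds of maternal to paternal reads -3.77 ± 0.60, counting SE) and at LOC_Os12g32150 (-3.14 ± 0.41). At LOC_Os12g32180, with 4 maternal reads in LR and 1 in RL, the difference was 2.2 ± 1.37, under 2 counting SE. Over all tested loci the median difference was 0.20, and 60.4% passed Fisher's exact test, 22.7% with the share lower in LR. For LOC_Os12g32080 the most deeply read SNP alone gave -2.58, and for LOC_Os12g32150 without T19392454C and T19392353G the difference was -1.42.

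YW had a higher maternal share than WY at all 3 loci. The log2 odds differed by 1.62 ± 0.26 at LOC_Os12g32080 and by 2.29 ± 0.14 at LOC_Os12g32150. The cornichon locus had 33.5% in YW and 0% in WY, for which no fold is given because WY had no maternal read. Over all tested loci the median difference was 0.82, and 71.5% passed Fisher's exact test, 60.1% with the share higher in YW. The differences of LOC_Os12g32080 and LOC_Os12g32150 exceeded that of the median locus by 0.80 and 1.48. For LOC_Os12g32150 without T19392454C and T19392353G the difference was 5.00.

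Between the crosses with a japonica mother, LR had the lower maternal share at all 3 loci. The difference from YW was -23.5 percentage points at LOC_Os12g32080 (log2 odds -5.52 ± 0.58). It was -20.1 points at LOC_Os12g32150 (-5.82 ± 0.40) and -31.8 points at LOC_Os12g32180 (-4.68 ± 0.72). Over loci tested in both sets the median difference was -0.53, and 58.8% passed Fisher's exact test, 55.0% with the share lower in LR. The choice of loci with low shares in LR bears on these differences, and a higher share in YW was also seen at the other strong paternal loci of LR and RL. The 156 others tested in both sets had medians of 5.49% in LR and 6.16% in RL, and 31.8% in YW and 5.87% in WY. Of these 156, 39 had a lower YW share than LOC_Os12g32080, 23 a lower one than LOC_Os12g32150 and 85 a lower one than LOC_Os12g32180.

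Between the crosses with an indica mother the 3 loci lay closer together. RL and WY gave 8.62 and 9.33% at LOC_Os12g32080 (log2 odds -0.13 ± 0.29) and 3.87 and 4.98% at LOC_Os12g32150 (-0.38 ± 0.17). The cornichon locus had 1 maternal read in RL and 0 in WY. Over loci tested in both sets 26.4% passed Fisher's exact test. At LOC_Os12g32150 the sign turned when T19392454C and T19392353G were left out (0.85).

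The level of the loci was compared between crosses at the SNP positions that both sets share (10 for LOC_Os12g32080, 11 for LOC_Os12g32150 and 4 for LOC_Os12g32180), in RPM, that is reads scaled to a total of 1000000 over the 47387 shared positions. These values depend on how many SNPs a locus has and cannot be set against each other between loci. LOC_Os12g32080 had 20.6 RPM in LR and 16.6 in RL, and 24.3 in YW and 15.4 in WY. LOC_Os12g32150 had 117 in LR and 133 in RL, and 118 in YW and 107 in WY. LOC_Os12g32180 had 9.46 in LR and 12.3 in RL, and 7.88 in YW and 12.4 in WY, so the cornichon locus was lower in both crosses with a japonica mother.

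Split by allele, the cornichon locus had 9.30 RPM of paternal reads in LR and 12.2 in RL, and 5.24 in YW and 12.4 in WY, beside 0.163 RPM of maternal reads in LR and 0.0349 in RL, and 2.64 in YW and 0 in WY. YW thus had both the most maternal and the fewest paternal reads of this locus, its paternal level being 0.423 of that in WY. At LOC_Os12g32150 the paternal reads were 94.0 RPM in YW and 102 in WY, a ratio of 0.922, and the maternal reads 24.2 in YW and 5.34 in WY. At LOC_Os12g32080 the paternal reads were 18.3 RPM in YW and 13.8 in WY, and the maternal reads 6.02 in YW and 1.64 in WY. The median ratio of reads summed over both alleles was 1.35 for YW to WY and 1.19 for LR to RL, on the same scale. It was taken over the loci tested in both sets that have shared positions. No such median was taken for paternal reads alone, so the paternal ratios have no background here. The ratios of summed reads were 1.57 for LOC_Os12g32080, 1.10 for LOC_Os12g32150 and 0.636 for LOC_Os12g32180 in YW to WY, and 1.25, 0.880 and 0.772 in LR to RL. With TMM scaling in place of RPM they were 1.19, 0.834 and 0.481 in YW to WY, so that LOC_Os12g32150 passed to the other side of 1, and 1.04, 0.736 and 0.645 in LR to RL. Replicates are pooled and no test is given, and fewer cells reading a locus cannot be told apart from less RNA per cell.

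**Figure D4:**
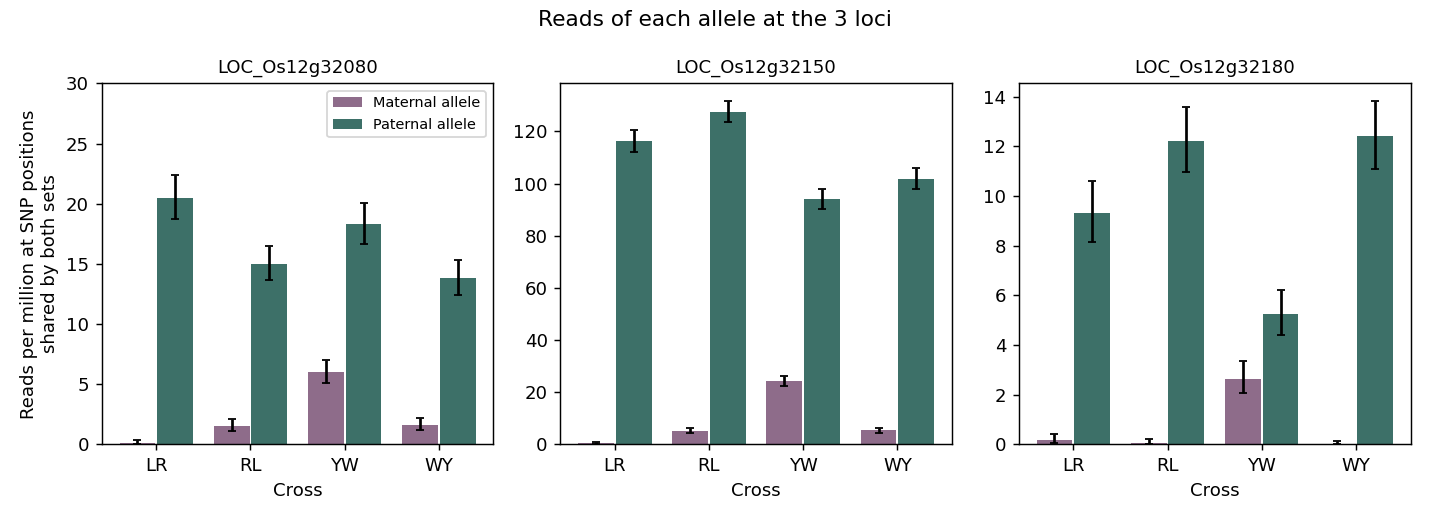
Reads of each allele in RPM at the SNP positions shared by both sets: maternal allele (purple) and paternal allele (green) of each locus in LR, RL, YW and WY, with exact Poisson 95% intervals that cover counting error only; the vertical axes differ between panels. Paternal bars exceed maternal bars in every cross, and at LOC_Os12g32180 the paternal level of YW (5.24) is the lowest and its maternal level (2.64) the highest.

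Among loci tested in both sets, the 4 departures from 2:1 were compared by Euclidean distance to name the loci most like each member, with 4 crosses as the only points. For LOC_Os12g32150 these were LOC_Os05g24000 (expressed protein, distance 0.83), LOC_Os05g48980 (ras-related protein, 0.89), LOC_Os03g27450 (ADP-ribosylation factor, 1.14), LOC_Os07g17460 (the F-box protein OsFBL36, 1.40) and LOC_Os04g32970 (OTU-like cysteine protease, 1.42). For LOC_Os12g32080 they were LOC_Os03g19920 (expressed protein, 1.21), LOC_Os05g31380 (GRAS family transcription factor, 1.24), LOC_Os08g35050 (ARID/BRIGHT DNA-binding domain, 1.47), LOC_Os01g56580 (casein kinase 1, 1.55) and LOC_Os07g27110 (RNA recognition motif, 1.70). LOC_Os12g32150 and LOC_Os12g32080 were close to each other, at a distance of 1.72, which ranked LOC_Os12g32150 number 6 for LOC_Os12g32080 and LOC_Os12g32080 number 9 for LOC_Os12g32150. For the cornichon locus the nearest were LOC_Os05g04330 (DNA methyltransferase, 1.40), LOC_Os06g42990 (AP2 domain, 2.44), LOC_Os12g31350 (SSXT protein, 2.72), LOC_Os12g36950 (CTP synthase, 2.77) and LOC_Os02g17910 (casein kinase 1, 2.81). LOC_Os05g04330 had maternal shares of 3.5% in LR and 0.463% in RL, and 24.8% in YW and 0% in WY, the same order over the crosses as the cornichon locus. The cornichon locus was farther from both of them, at rank 286 for LOC_Os12g32080 (distance 7.70) and rank 136 for LOC_Os12g32150 (6.44). Seen from the cornichon locus, LOC_Os12g32080 had rank 94 and LOC_Os12g32150 rank 63. The departures of the cornichon locus rest on 0 maternal reads in WY and 1 in RL.

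Groups of neighbouring strong paternal loci were counted over the whole LR and RL table. Of 177 strong paternal loci, 37 had another as the next tested locus, which made 21 adjacent pairs. In 6 places at least 3 lay within the length of this block, on chromosomes 1 (2 groups), 8, 10, 11 and 12. The length of the block in LR and RL set that limit, so the block is among the 6 by construction. At 4 of the 6 places, on chromosomes 1, 8, 10 and 11, every tested locus inside the group was strong paternal. The block on chromosome 12 had 3 of 4 and the other group on chromosome 1 had 3 of 6. In YW and WY, with 70 strong paternal loci and 5 adjacent pairs, there were 0 such groups. The block could not count there, because LOC_Os12g32180 had no strong call against 2:1. With the null at the median ratio of each cross it was among 123 strong paternal loci, and groups were not counted with that null. Chromosome 12 held 15 strong paternal loci of 549 tested in LR and RL (2.73%, beside 1.63% over all chromosomes). It held 9 of 602 in YW and WY (1.5%, beside 0.612%). The counts include all 3 loci of the block in LR and RL, and LOC_Os12g32080 and LOC_Os12g32150 in YW and WY. These were chosen by their low maternal counts, so the shares of chromosome 12 are in part set by that choice.

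Other loci of the COPII route were taken from the annotation words of the tables (cornichon, the Sec coat proteins, SAR1 and the p24 cargo receptors), which gave 9 tested loci beside LOC_Os12g32180 in each set. In LR and RL 3 of these 9 had a paternal call (6.87% of all tested loci), 0 a maternal call (2.03%), 2 a japonica call (20.2%), 1 an indica call (11.1%) and 3 none, and 0 had a strong paternal call. Their median maternal shares were 66.6% in LR and 62.5% in RL, beside 67.1 and 63.8% over all tested loci. The other cornichon locus, LOC_Os06g04500, was among the paternal calls with 60.6% in LR and 60.2% in RL (adjusted p = 0.000114, exact binomial test), close to 2:1 compared with 1.72 and 0.285% at LOC_Os12g32180, and was not measured in YW and WY. The other paternal calls were the p24 family loci LOC_Os02g52920 (50.9% in LR and 39.3% in RL) and LOC_Os06g10760 (65.8 and 66%). In YW and WY 1 of the 9 had a paternal call (LOC_Os02g52920, 51.9% in YW and 38.2% in WY), 1 a maternal call (LOC_Os03g53140, Sec23B, 74.7 and 77.0%), 5 a japonica call and 2 none, beside 3.73% paternal, 5.99% maternal and 32.4% japonica calls over all tested loci, and again 0 had a strong paternal call. Their medians were 75.1% in YW and 60.2% in WY, beside 75.1 and 62.9% over all tested loci. LOC_Os09g32968 (p24 family, measured in YW and WY alone) also had 0% in WY, but 98.4% in YW, a japonica call.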

How the data were processed

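The deposited tables give whole-number counts of reads with the maternal and with the paternal allele at each SNP, with 1 column of each per cross, so the authors had pooled the replicates (per the file headers). Bowtie2 2.2.1, GATK 3.5, SAMtools 0.1.16 and Trimmomatic 0.32 are listed, per the submitters' processing notes, with no order; the genome build is not named. The lowest depth of a listed SNP in a cross was 11 reads. Columns were assigned to crosses by their names, and 0 sample columns were left unassigned.

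Counts were summed over the SNPs of a locus, so a read that covers several SNPs was counted at each. Loci with a mean of at least 10 reads per library in both crosses (30 reads per cross in LR and RL, 20 in YW and WY) were tested on the whole table. Parent calls used exact two-sided binomial tests against 2:1 and differences between crosses Fisher's exact test (SciPy 1.17.1), each Benjamini-Hochberg adjusted over all tested loci at 0.05. A japonica or indica call has its crosses on opposite sides of 2:1. These p-values cover counting error between pooled libraries and not the spread between plants. An alternative fit used edgeR 4.0.16 in R 4.3.3 on the 4 crosses, with 1 residual degree of freedom and a common dispersion of 0.0469. Wilson intervals have a confidence level of 95%, and a count of 0 allows 3 reads.

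The members, gene lists and tests were chosen with earlier results of these data known. Named loci were the 3 members, every measured locus between them, the 5 nearest measured on each side, the 5 most alike by the 4 departures, and the annotated cornichon loci and strong calls of the COPII list. Paternal calls of that list without a strong call were named after their values were seen, as was LOC_Os03g53140. None of the 3 locus identifiers (0 of 3) matched the RefSeq gene table at hand, so no sequence is shown.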

Additional observations from a re-analysis of the deposited data

Results flagged for a closer look

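Differences between the crosses with a japonica mother were flagged at all 3 loci, where the read counts of LR and YW differed beyond counting error. Low counts in these columns chose the loci, so the differences are values and no independent evidence. The maternal share differed by -23.5 percentage points at LOC_Os12g32080 (0.640% in LR and 24.2% in YW), by -20.1 points at LOC_Os12g32150 (0.438% in LR and 20.5% in YW) and by -31.8 points at LOC_Os12g32180 (1.72% in LR and 33.5% in YW). Of the loci tested in both sets, 58.8% passed Fisher's exact test between LR and YW, 55.0% with the share lower in LR. The 156 other strong paternal loci of LR and RL tested in both sets had medians of 5.49% in LR and 31.8% in YW. They were called by low shares in LR and RL and not in YW, so part of that gap is built in. The median share of all tested loci was also lower in LR (67.1%) than in YW (75.1%). The part of this shift in the differences was not tested.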

How the results depend on the processing

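No paired analysis was possible because the deposited columns pool the replicates of each cross, which also means that no replicate could be left out. Paternal calls numbered 747 in LR and RL and 427 in YW and WY. They numbered 468 in LR and RL when each locus was represented by its SNP with the most reads. The joint edgeR fit, which averages all 4 crosses over 9753 loci, gave 656 paternal calls, which is no count of either set alone. With that single SNP per locus, differences numbered 3569 in place of 5731 between LR and YW, and 1290 in place of 2573 between RL and WY. With the null set at the median ratio of each cross, paternal and maternal calls numbered 615 and 326 in place of 747 and 221 in LR and RL, and 632 and 390 in place of 427 and 685 in YW and WY. Strong paternal calls in YW and WY then numbered 123 in place of 70, LOC_Os12g32180 among them. With the median null the mean departure changed sign at LOC_Os12g31820 (0.00771) and LOC_Os12g32284 (0.00932) in LR and RL, and at LOC_Os12g31830 (-0.0526) and LOC_Os12g32284 (-0.14) in YW and WY. With that null LOC_Os12g31880 received a paternal call in YW and WY (-0.57, adjusted p = 1.00e-07, exact binomial test). LOC_Os12g31820 received an indica call in LR and RL (adjusted p = 0.00130, exact binomial test) and LOC_Os12g31830 in YW and WY (adjusted p = 8.36e-16). LOC_Os12g32280 and LOC_Os12g32284 lost their japonica calls in YW and WY (adjusted p = 0.178 and 0.918). With the SNP with the most reads, LOC_Os12g32280 lost its japonica call in LR and RL (adjusted p = 0.0530, exact binomial test) and LOC_Os12g32170 received one (adjusted p = 1.13e-06; mean departure -0.57 in place of -3.75). The joint fit makes no strain calls. In the joint fit the sign also changed at LOC_Os12g32210 (-0.44) and LOC_Os12g32284 (-0.0209) in YW and WY. For RL minus WY, the SNP with the most reads gave 0.16 at LOC_Os12g32080 and 3.62 at LOC_Os12g32150 (a different SNP in each set), and leaving out T19392454C and T19392353G, chosen after seeing the data, gave 0.85 at LOC_Os12g32150. The cause of these changes was not tested. Of the other values for single loci, with changes of strain calls left aside, 153 had the same sign and the same parent call or lay within their error, 7 passed a threshold they had missed, 1 no longer passed, and 8 levels moved beyond their counting error under TMM scaling. The value that no longer passed was the difference of LR from RL at LOC_Os12g32080 with the SNP with the most reads. Depth limits LOC_Os12g32180 most, with 203 to 351 reads per cross.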
